A study of Homo sapiens with 18 samples.

Results

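The kallikrein-related peptidases KLK5, KLK6, KLK7, KLK8, KLK10 and KLK11 were described in NCI-H1693, a line established from a human lung carcinoma of the non-small cell type and labelled SMARCA4-deficient. They were chosen by symbol, as neighbouring serine protease genes on chromosome 19, and are 6 of the 43236 gene symbols of the count table. Cells received 50 nM PRT3789, a degrader of the chromatin remodelling ATPase SMARCA2, or DMSO, its vehicle control. Poly(A) RNA was sequenced after 6, 48 or 72 h, with 3 libraries in each of the 6 groups (18 libraries). All groups share a single cell line, and the labels do not say whether the 3 libraries of a group were separate cultures, so each p measures the spread between these libraries, which may be technical.

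Kallikrein-related peptidases are secreted as inactive precursors and become trypsin-like or chymotrypsin-like proteases when a short propeptide is removed, often by another kallikrein. In skin they form a cascade that cuts the desmosomal and corneodesmosomal proteins between cornified cells, and inhibitors of the Kazal, Kunitz and serpin types restrain them. In carcinomas they are studied as secreted markers and for cutting matrix proteins, growth factor binding proteins and protease-activated receptors.

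On GRCh38 the 6 genes lie on the minus strand of chromosome 19, from KLK5 (chr19:50943303-50953038) through KLK6 (chr19:50958631-50969591), KLK7 (chr19:50976468-50984064), KLK8 (chr19:50996008-51001604) and KLK10 (chr19:51012739-51020097) to KLK11 (chr19:51022236-51027991). Positions are those of RefSeq and strands those of the GENCODE annotation. The whole kallikrein cluster, from KLK1 to KLK14, covers 265.1 kb. The RefSeq promoter table (GRCh38.p14) held windows for KLK5, KLK6, KLK7, KLK10 and KLK11. The 250 bases before the start of KLK5 and KLK6 are shown because these are the members whose fall was called at both later times. In the KLK5 window (chr19:50953039-50953288, minus strand, 64.8% G or C) the capitals mark GGAATG, a TEAD element, on either strand. In the KLK6 window (chr19:50969592-50969841, minus strand, 66.8% G or C) they mark GGGCGG, a GC box, on either strand. Both are written 5′ to 3′ and end at the base before the gene's start.
KLK5: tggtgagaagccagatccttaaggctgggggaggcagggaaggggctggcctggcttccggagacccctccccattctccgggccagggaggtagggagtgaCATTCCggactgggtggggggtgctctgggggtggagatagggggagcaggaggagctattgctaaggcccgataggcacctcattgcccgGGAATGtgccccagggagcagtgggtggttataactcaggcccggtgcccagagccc
KLK6: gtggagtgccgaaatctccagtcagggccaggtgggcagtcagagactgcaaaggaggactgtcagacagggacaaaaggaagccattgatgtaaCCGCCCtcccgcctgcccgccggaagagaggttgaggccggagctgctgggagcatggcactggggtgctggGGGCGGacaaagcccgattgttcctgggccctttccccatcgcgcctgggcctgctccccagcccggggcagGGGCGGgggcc
The adjacent genes differ in these letters. KLK5 held 2 TEAD matches, which begin 148 and 57 bases before the start, and no GC box. KLK6 held 3 GC boxes, which begin 155, 83 and 11 bases before the start, and no TEAD match. Of 35114 promoter windows of this length, 11.9% held GGAATG and 42.6% held GGGCGG, searched on both strands. Neither window held the AP-1 element TGANTCA (in 6.57% of windows) or the TATA box TATAAA (in 10.7%). These motifs do not overlap each other and were picked with the data known. A match is a run of letters, not a measured binding site.

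Library totals ran from 23154484 to 31094797 counts, so that 3 counts, the limit that a count of 0 allows, were worth 0.0958 to 0.142 CPM (counts scaled to library size). The reads carry no molecular identifiers, and such limits and intervals cover counting error only. The 10 epithelial markers examined all passed the filter on low counts and summed to 4775 to 12190 CPM per library. The 10 blood cell markers summed to 1.01 to 3.19 CPM, with 2 of the 10 at 0 in every library. Those of endothelial cells and fibroblasts, also 10, summed to 84.9 to 143 CPM. Among these, LUM had a mean of 120 CPM in DMSO at 6 h. PRT3789 acts on SMARCA2 protein, so its mRNA does not check the labels. Mean SMARCA2 mRNA in DMSO was 39.4, 42.2 and 47.2 CPM at the 3 times in order. In PRT3789 it was 40.5, 37.0 and 34.8 CPM, and it was called lower at 72 h only (log2 fold change -0.44, edgeR adjusted p = 0.00108). The 6 h libraries varied more than the later ones, while the tests pooled the spread over times, which can make p values at 6 h too low.

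KLK5 and KLK6 fell in PRT3789 by 48 h and were called lower again at 72 h, while neither was called at 6 h. KLK6, the most abundant member, dropped from 18.3 ± 0.728 CPM in DMSO to 0.880 ± 0.392 CPM in PRT3789 at 48 h (mean ± SD, n = 3 libraries each). KLK5 went from 2.37 ± 0.503 to 0.169 ± 0.194 CPM at the same time. KLK10 was scarce and uneven, and its fall at 48 h did not hold under every setting. KLK7, KLK8 and KLK11 had too few counts to test in any group.

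**Figure D1:**
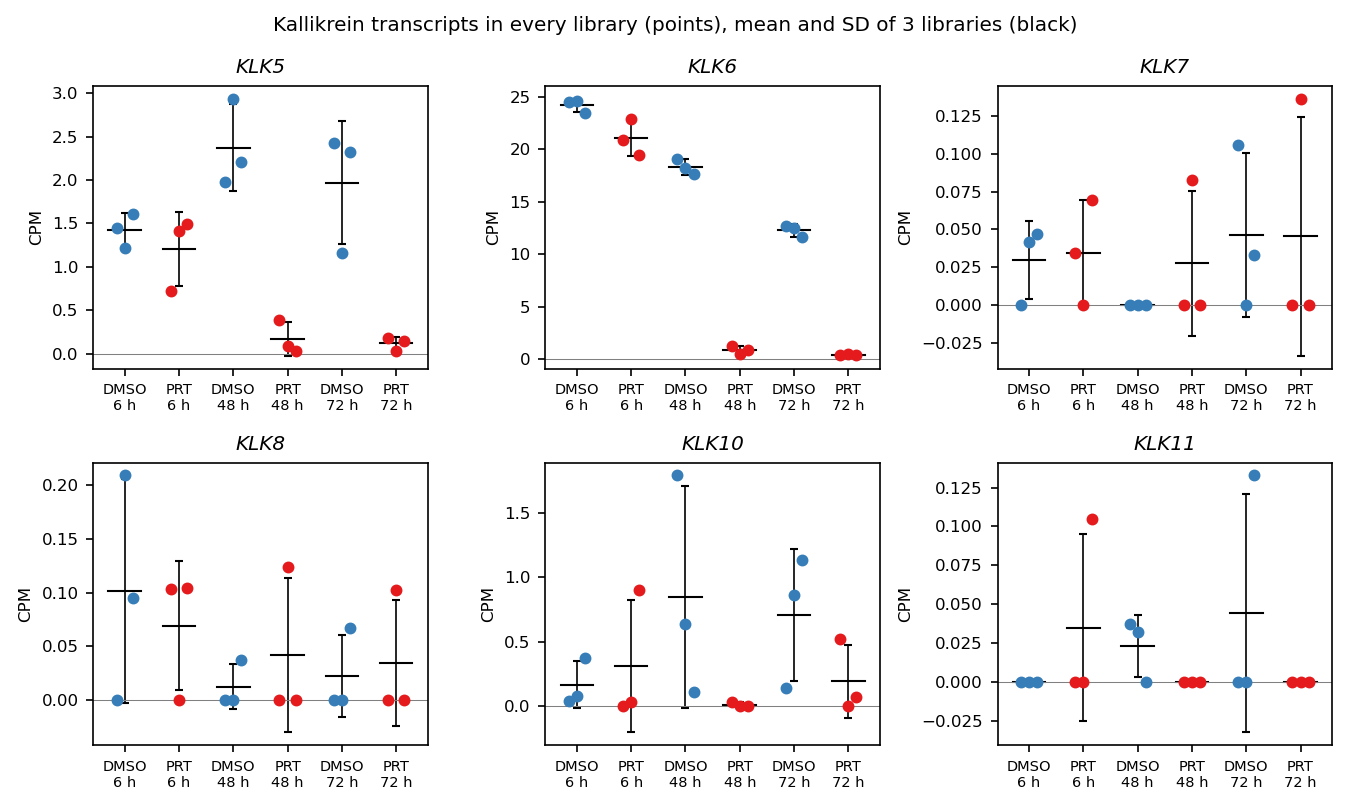
Level of each of the 6 kallikreins, in CPM on the vertical axis of its own panel, in each library by group (PRT, PRT3789). Points are libraries, and black lines are the mean and SD of 3 libraries. For KLK5 and KLK6 the PRT3789 points at 48 and 72 h lie below every DMSO point, and the scales of KLK7, KLK8 and KLK11 end near the worth of a few counts.

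KLK6, also called neurosin, is a trypsin-like protease that cuts matrix proteins and amyloid precursor protein. Its DMSO libraries read 24.5, 24.6 and 23.5 CPM at 6 h, 19.1, 18.2 and 17.6 CPM at 48 h, and 12.7, 12.5 and 11.6 CPM at 72 h. In PRT3789 they read 20.9, 22.8 and 19.4 CPM at 6 h, 1.28, 0.497 and 0.862 CPM at 48 h, and 0.382, 0.510 and 0.383 CPM at 72 h. At each time every PRT3789 library was below every DMSO library, as in 27.5% of all tested genes at 48 h and 30.7% at 72 h. The order of the group means was DMSO 6 h, PRT3789 6 h, DMSO 48 h, DMSO 72 h, PRT3789 48 h and PRT3789 72 h, and among neighbours in this order only the last pair overlapped.

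Calls rest on edgeR's quasi-likelihood test, with p values of 16291 genes adjusted by Benjamini-Hochberg and a threshold of 0.05. At 6 h KLK6 differed by a log2 fold change of -0.20 ± 0.12 (SE, adjusted p = 0.493), although its libraries did not overlap. At that time 8.35% of all tested genes lay apart in the lower direction, and 3.04% were called lower. At 48 h KLK6 was 20.4-fold lower in PRT3789 (log2 fold change -4.35 ± 0.17, adjusted p = 1.37e-12). At 72 h it was 28.5-fold lower (-4.83 ± 0.19, adjusted p = 1.62e-12). The change of its effect from 6 to 48 h was itself called (difference of log2 fold changes -4.15 ± 0.21, edgeR adjusted p = 2.77e-10). From 48 to 72 h the effect moved by -0.48 ± 0.29 (adjusted p = 0.63), with a 95% interval from -1.10 to 0.13.

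KLK5, a trypsin-like protease that can activate itself and other kallikreins, was second in level. In DMSO it read 1.45, 1.21 and 1.61 CPM at 6 h, 1.98, 2.94 and 2.20 CPM at 48 h, and 2.43, 1.16 and 2.33 CPM at 72 h. In PRT3789 it read 0.720, 1.41 and 1.5 CPM at 6 h, then 0.391, 0.0829 and 0.0332 CPM at 48 h and 0.174, 0.0340 and 0.139 CPM at 72 h. Its groups overlapped at 6 h and lay apart at 48 and 72 h, where PRT3789 libraries held between 1 and 11 counts. Ordered by mean, the groups were DMSO 48 h, DMSO 72 h, DMSO 6 h, PRT3789 6 h, PRT3789 48 h and PRT3789 72 h. Neighbours in this order overlapped except for PRT3789 at 6 and 48 h.

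KLK5 at 6 h differed by -0.23 ± 0.42 (log2 fold change ± SE, edgeR adjusted p = 0.864). At 48 h it was 13.7-fold lower (-3.77 ± 0.52, adjusted p = 1.46e-05), and at 72 h 16.6-fold lower (-4.05 ± 0.56, adjusted p = 1.16e-05). The change of effect from 6 to 48 h was -3.54 ± 0.68 (adjusted p = 0.00117), and from 48 to 72 h it was -0.28 ± 0.84 (adjusted p = 0.924, 95% interval -2.05 to 1.49). The size at 48 h rests in part on 1 library: without PRT3789 48 h replicate 1, which held 11 of the 14 counts of its group, the log2 fold change was -5.33, still called.

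**Figure D2:**
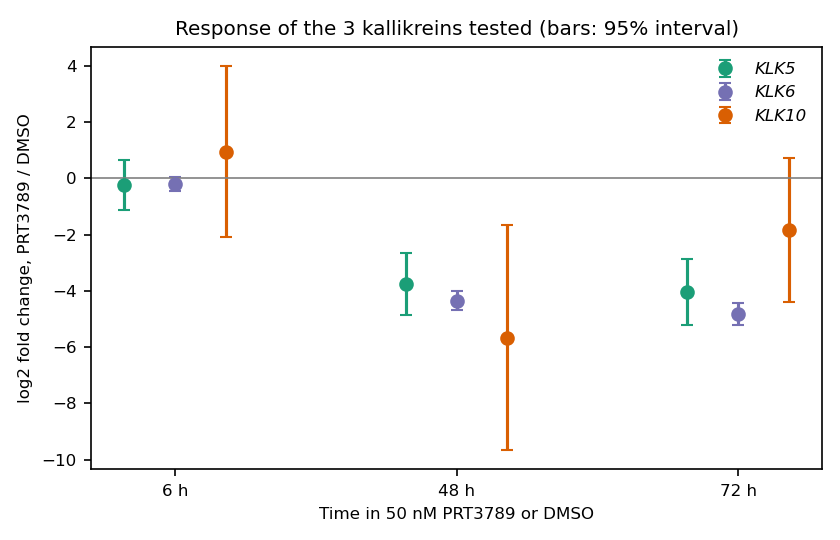
Log2 fold change of PRT3789 against DMSO (vertical axis) for the 3 tested kallikreins at 6, 48 and 72 h (horizontal axis). Bars are 95% intervals from edgeR; those of KLK5 and KLK6 lie below 0 at 48 and 72 h and reach 0 at 6 h, and that of KLK10 is the widest at each time.

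Of the 6 members, 3 passed the filter on low counts, which needs about 10 counts in a few libraries and so favours genes that are high in some group. None of these 3 was called at 6 h, beside 4.33% of all tested genes in either direction. At 48 h KLK5 and KLK6 were called lower, where 20.9% of tested genes were. KLK10 was called lower too, but it passed the filter only through the 6 libraries in which it was highest. At 72 h KLK5 and KLK6 were called lower, where 22% of tested genes were. For the change of effect from 6 to 48 h KLK5 and KLK6 were called in the lower direction, as were 10.4% of genes. From 48 to 72 h no member was called by edgeR, and neither was any other gene (0%), while 9.06% of genes had an unadjusted p under 0.05 and DESeq2 called 103 genes. From the most lowered fold change, KLK6 ranked 109 and KLK5 159 of 16291 genes at 48 h, and 80 and 140 at 72 h. KLK10 ranked 41 and 620, but its fold change at 48 h rests on 1 count in PRT3789, so that rank is uncertain. Over all tested genes the median log2 fold change was 0.01 at 48 and at 72 h. The members were chosen with earlier results of these data known, so their ranks and falls are a description and not a test against that median.

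KLK6 also declined over time in DMSO, where KLK5 was not called. KLK6 fell by 0.40 ± 0.12 on the log2 scale from 6 to 48 h (1.32-fold, edgeR adjusted p = 0.0141, with all 3 libraries at 48 h below those at 6 h), where 20.1% of genes were called lower and 20% lay apart in that direction. It fell again by 0.58 ± 0.12 from 48 to 72 h (1.49-fold, adjusted p = 0.0413), with all 3 libraries at 72 h below those at 48 h. In that comparison 0.153% of genes were called lower and 13.7% lay apart in that direction. The number of genes called there in either direction was 88, and it ran from 0 to 555 in the alternatives. Neither call was stable: the first was lost without DMSO 6 h replicate 2 (adjusted p = 0.0567) or DMSO 48 h replicate 2 (0.056), the second without any 1 of 12 libraries (0.0558 to 0.237). These were DMSO 6 h replicate 2, PRT3789 6 h replicate 1, PRT3789 48 h replicate 3, and each library of DMSO 48 h, DMSO 72 h and PRT3789 72 h. KLK5 differed by 0.74 ± 0.40 from 6 to 48 h in DMSO (adjusted p = 0.156), with all 3 libraries at 48 h above those at 6 h, as in 19.4% of genes, and by -0.27 ± 0.38 from 48 to 72 h (adjusted p = 0.711).

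The proportion of the 2 transcripts was compared within each library. In DMSO there were 5.91 ± 0.957 KLK5 counts per 100 KLK6 counts at 6 h, 13.0 ± 2.91 at 48 h and 16.2 ± 5.97 at 72 h (n = 3 each). The libraries at 48 and 72 h were all above those at 6 h, for which the exact two-sided permutation test gave p = 0.1, the smallest that 3 against 3 allow (0.3 after Benjamini-Hochberg adjustment over 6 comparisons). PRT3789 and DMSO at the same time gave p between 0.6 and 1, with 5.78 ± 2.16 at 6 h, 17.0 ± 13.4 at 48 h and 29.5 ± 20.3 at 72 h in PRT3789. These last values come from 1 to 11 KLK5 counts and 11 to 36 KLK6 counts a library. With 3 libraries a group this test cannot go below 0.1 at any depth, so it cannot decide whether the proportion shifts.

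Per length of exon KLK6 led in DMSO and in PRT3789 at each time. In DMSO at 6 h KLK6 stood at 12.2 CPM per kb of exon, KLK5 at 0.862 and KLK10 at 0.0442. At 48 h in PRT3789 KLK6 was at 0.445 CPM per kb and KLK5 at 0.102. In DMSO at that time KLK6 was at 9.27 CPM per kb and KLK5 at 1.44. Over the 18 libraries log2 CPM of KLK5 and KLK6 had a Pearson correlation of 0.911 and a Spearman correlation of 0.521. After the group means were removed the Pearson correlation was 0.284. These points share library and treatment group.

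KLK10, known as normal epithelial cell-specific 1 and often silenced in breast carcinoma, had 188 counts in the 18 libraries. In DMSO the libraries held 1, 2 and 8 counts at 6 h, then 48, 20 and 3 counts at 48 h, then 4, 23 and 34 counts at 72 h. In PRT3789 they held 0, 1 and 26 counts at 6 h, then 1, 0 and 0 counts at 48 h, then 15, 0 and 2 counts at 72 h. Libraries of the same group thus differed widely, and the treatments overlapped at 6 and 72 h but not at 48 h. The highest library was DMSO 48 h replicate 1 at 1.79 CPM.

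At 48 h KLK10 had 71 counts in DMSO and 1 in PRT3789, a ratio of 68.5 with a 95% counting interval from 11.9 to 2740. Its edgeR log2 fold change was -5.66 ± 1.88 (adjusted p = 0.0233). At 6 h it was 0.94 ± 1.44 (adjusted p = 0.839), and at 72 h -1.84 ± 1.21 (adjusted p = 0.239). The call at 48 h was lost without the filter (adjusted p = 0.0737), with limma-voom (0.0532), when DMSO 48 h replicate 1 was left out (0.0994) and when any PRT3789 library of 48 h was (replicates 1, 2 and 3, 0.0566, 0.0624 and 0.0741). Its log2 fold change stayed negative in these fits, at -5.67 without the filter, -4.34 with limma-voom and between -7.55 and -4.54 with a library left out. The change of its effect from 6 to 48 h did not pass the test (edgeR adjusted p = 0.0767).

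KLK10 counts went with some basal keratins, across groups. KRT14, a keratin of basal squamous cells, was above 1 CPM in 6 libraries: DMSO 48 h replicates 1 and 2, PRT3789 6 h replicate 3, DMSO 72 h replicates 2 and 3, and PRT3789 72 h replicate 1. Those libraries had 2.74 to 6.75 CPM of KRT14, against 0 to 0.209 CPM in the other 12. KRT5 ran from 7.04 to 17.9 CPM against 0.034 to 1.37, and KRT6A from 6.86 to 13.5 CPM against 0 to 0.415. The same 6 libraries were the highest for KLK10, with 0.521 to 1.79 CPM against 0 to 0.378, and held 166 of its 188 counts.

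The summed level of 12 basal and hyperproliferative keratinocyte markers, a list chosen after seeing the data, ran from 26.6 to 37.5 CPM in DMSO and 29.5 to 79.0 CPM in PRT3789 at 6 h. It ran from 21.5 to 80.0 and 18.7 to 23.7 CPM at 48 h, and from 27.0 to 78.1 and 21.7 to 46.7 CPM at 72 h. Of these markers 8 passed the filter, and 1 had no count in any library. In 5 of the 12 (KRT14, KRT5, KRT6A, DSG3 and COL17A1) all 6 libraries were above the other 12, and in 7 they were not. KRT15 ran from 0.659 to 1.88 CPM against 0.356 to 1.58, and DSC3, a desmosomal cadherin, from 7.24 to 17.6 CPM against 5.99 to 19.9. At 48 h 1 of the 8 was called higher and 4 lower, beside 21.2% and 20.9% of all tested genes. Over the 18 libraries this sum and KLK10 had a Pearson correlation of 0.876 on the log2 scale, and 0.871 after group means were removed, against 0.506 and 0.104 for KLK5 and 0.429 and 0.0118 for KLK6. Whether the KLK10 and KLK11 counts of these 6 libraries come from the NCI-H1693 cells was not tested, nor was the part of these markers in the KLK10 result, and in bulk RNA fewer cells of a type and less RNA per cell cannot be told apart.

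KLK5 and KLK6 were still called lower without these 6 libraries, an alternative chosen after seeing the data that leaves 1 DMSO library at 48 h and 1 at 72 h. There the log2 fold change of KLK6 was -4.30 at 48 h (edgeR adjusted p = 4.53e-07) and -4.82 at 72 h (1.16e-06). That of KLK5 was -3.67 (0.00246) at 48 h and -4.75 (0.00167) at 72 h, the latter a larger fall than with all libraries. The single DMSO library is assumed to vary like the other groups. KLK10 did not pass the filter there, so 2 members were called at each of these times.

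**Figure D3:**
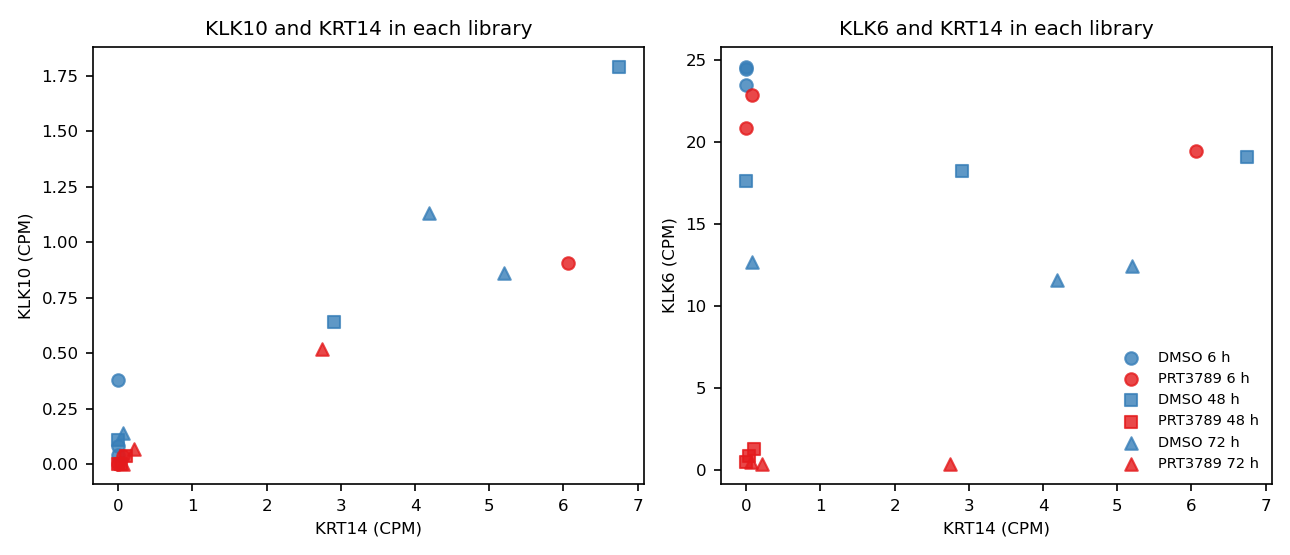
CPM of KLK10 (left) and KLK6 (right) on the vertical axes against CPM of KRT14 on the horizontal axes, 1 point per library, with shape for time and colour for treatment. The 6 libraries right of 1 CPM of KRT14 are the 6 highest for KLK10, while for KLK6 they lie near the other libraries of their group and time.

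The other 3 members were close to the limit of detection. KLK7, the chymotrypsin-like stratum corneum enzyme, had 15 counts in all, at most 4 in a library. KLK8, also called neuropsin, had 22 counts, at most 5 in a library. KLK11, a trypsin-like relative, had 9 counts, at most 4 in a library. All 9 counts of KLK11 came from libraries with over 1 CPM of KRT14, while KLK7 had 3 of its 15 and KLK8 5 of its 22 there. KLK7 and KLK8, which lie next to each other, were mostly found in the same libraries: both had counts in 7 libraries, neither in 9, and 1 library each had KLK7 or KLK8 alone. By group, KLK7 had 2, 0 and 4 counts in DMSO at 6, 48 and 72 h and 3, 2 and 4 in PRT3789, and KLK8 had 7, 1 and 2 against 6, 3 and 3. No difference between treatments was detectable at this depth.

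Elsewhere in the cluster there was little RNA. Of the 10 other genes, KLK14 had 23 counts, and KLK2, KLK9 and KLK13 had 1 each. KLK1, KLK3, KLK4, KLK12, KLK15 and the pseudogene KLKP1 had 0 counts in all 18 libraries, where 3 counts of 494779671 would be 0.00606 CPM. None of the 10 passed the filter. KLK5 and KLK6 are thus adjacent tested genes with KLK4 at 0 on one side and the scarce KLK7 on the other. RSEM shares out reads that fit several genes, so low counts among these related sequences are uncertain.

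**Figure D4:**
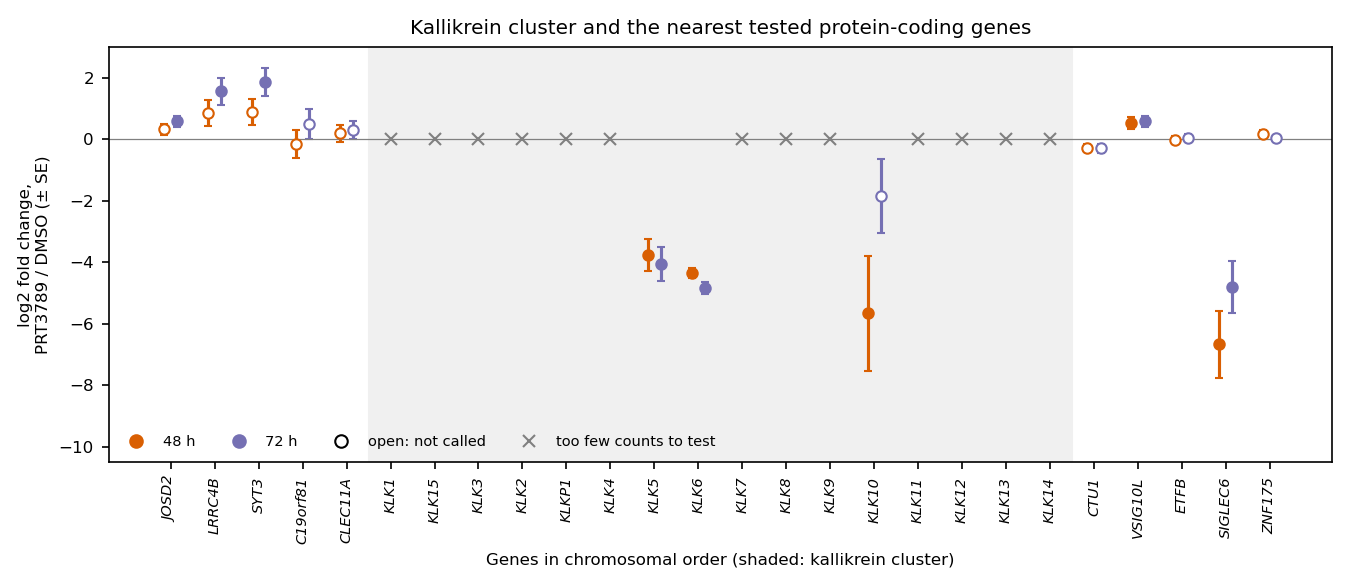
Log2 fold change of PRT3789 against DMSO with its SE (vertical axis) for the genes of the kallikrein cluster (shaded) and the 5 nearest tested protein-coding genes on each side, in chromosomal order. Filled points were called, open points were not, and crosses mark genes with too few counts to test. KLK5 and KLK6 are low at 48 and 72 h, while the flanking genes other than SIGLEC6 lie near or above 0.

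Of the 5 nearest tested protein-coding genes on each side of the cluster, none was called at 6 h. At 48 h VSIG10L was called higher (log2 fold change 0.53 ± 0.18, edgeR adjusted p = 0.0266) and SIGLEC6 lower. SIGLEC6, a sialic acid-binding receptor, had 39 counts in DMSO and 0 in PRT3789, at least 12.5-fold lower against a floor of 3 counts over the group. At 72 h JOSD2 (0.59), LRRC4B (1.57), SYT3 (1.86) and VSIG10L (0.58) were called higher, and SIGLEC6 lower with 38 and 1 counts (ratio 38.8, counting interval 6.55 to 1570). Of all tested genes, 21.2% were called higher and 20.9% lower at 48 h, and 21.3% and 22% at 72 h. The median log2 fold change of the 10 was 0.18 at 48 h and 0.39 at 72 h. Without the libraries rich in KRT14, 1 of the 10 was called higher and 1 lower at 72 h.

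Some genes that restrain kallikreins fell as well. Of 14 inhibitors, 9 passed the filter. None was called at 6 h, and 4 were lower and none higher at 48 and at 72 h. Of all tested genes 20.9% and 22% were called lower at these times, and 21.2% and 21.3% higher. SPINT1, a Kunitz-type inhibitor of membrane serine proteases, fell from 307 ± 18.6 to 174 ± 6.87 CPM at 48 h (n = 3 each, edgeR adjusted p = 7.35e-08). SPINT2, its relative, fell by 0.61 ± 0.09 on the log2 scale (adjusted p = 3.55e-05). SLPI, a secreted inhibitor of leukocyte and epithelial proteases, fell from 2.84 ± 0.217 to 0.668 ± 0.354 CPM (adjusted p = 0.000442). SERPINA1, which encodes alpha-1-antitrypsin, fell by 0.49 ± 0.13 on the log2 scale (adjusted p = 0.00488), a call lost without the KRT14-rich libraries (0.0712). The median over the 9 was 0.04 at 48 h, near the 0.01 of all genes. The kallikrein inhibitor SPINK5 did not pass the filter. It had 3, 5 and 3 counts in DMSO at 6, 48 and 72 h and 5, 15 and 25 in PRT3789. At 72 h its libraries ran from 0 to 0.112 CPM in DMSO and from 0.278 to 0.306 CPM in PRT3789.

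Among genes whose products kallikreins are reported to cut or signal through, 14 of 20 passed the filter. None was called at 6 h, and 1 was higher and 7 lower at 48 and at 72 h. Among all tested genes 21.2% and 21.3% were called higher at these times, and 20.9% and 22% lower. L1CAM, a cell adhesion protein, fell from 79.9 ± 10.5 to 5.69 ± 1.20 CPM at 48 h (n = 3 each, edgeR adjusted p = 6.7e-11). PLAU, the urokinase protease, fell from 272 ± 12.8 to 36.3 ± 19.3 CPM (adjusted p = 4.5e-08). IGFBP3, a growth factor binding protein, fell by 1.19 ± 0.08 on the log2 scale, and LAMA3, a laminin chain, by 1.10 ± 0.12 (adjusted p = 1.12e-09 and 1.03e-06). The member that rose was F2RL1, a protease-activated receptor, from 35.2 ± 3.0 to 49.7 ± 2.00 CPM (adjusted p = 0.000226), and it is named here after its values were seen. The median over the 14 was -0.11 at 48 h and -0.25 at 72 h. Without the KRT14-rich libraries 4 were called at 48 h, all lower.

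Of 21 other epithelial serine proteases, 13 passed the filter. Of these, 1 was lower at 6 h, 10 were lower and 1 higher at 48 h, and 11 lower and 1 higher at 72 h. Among all tested genes 3.04%, 20.9% and 22% were called lower at 6, 48 and 72 h. The shares called higher were 21.2% at 48 h and 21.3% at 72 h. TMPRSS13, a membrane-bound protease, fell from 6.29 ± 1.38 to 0.126 ± 0.122 CPM at 48 h (n = 3 each, edgeR adjusted p = 2.68e-09). PRSS23, a secreted protease, fell from 1342 ± 29.2 to 426 ± 5.03 CPM (adjusted p = 9.32e-13). ST14, the membrane protease matriptase, fell from 1039 ± 87.6 to 594 ± 8.77 CPM (adjusted p = 5.69e-08). TMPRSS11E, a relative, rose from 104 to 180 CPM (mean of 3 each, log2 fold change 0.80 ± 0.08, adjusted p = 3.18e-07). The median over the 13 was -1.26 at 48 h and -0.86 at 72 h.

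Squamous differentiation genes, the setting in which kallikreins act in skin, had 12 of 26 pass the filter, and 7 had no count in any library. At 6 h 1 was lower, KRT80, and at 48 and 72 h 5 were lower and none higher. Beside these, 3.04%, 20.9% and 22% of all tested genes were called lower at 6, 48 and 72 h. KRT80, a keratin, fell from 389 ± 38.2 to 134 ± 25.6 CPM at 6 h (edgeR adjusted p = 6.28e-07) and from 562 ± 20.9 to 17.1 ± 1.49 CPM at 48 h (1.01e-13; n = 3 each). IVL, the envelope protein involucrin, fell from 10.6 ± 0.338 to 0.420 ± 0.164 CPM at 48 h (adjusted p = 4.57e-10). SPRR3 and SPRR1B, small proline-rich envelope proteins, fell by 5.11 ± 0.27 and 2.96 ± 0.38 on the log2 scale (adjusted p = 9.51e-11 and 6.66e-06). The median over the 12 was -0.94 at 48 h and -0.67 at 72 h.

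Of 10 epithelial markers, 3 were lower at 6 h, when no kallikrein was called, 8 lower and 1 higher at 48 h, and 6 lower at 72 h. The shares of all tested genes called lower were 3.04%, 20.9% and 22%, and 21.2% were called higher at 48 h. CLDN4, a tight junction protein, was 2.10-fold lower at 6 h and 2.51-fold lower at 48 h, and the keratins KRT8 and KRT18 were 2.45-fold and 2.55-fold lower at 48 h. The sum of all 10 epithelial markers ran from 11460 to 12190 CPM in DMSO and from 5452 to 5662 CPM in PRT3789 at 48 h. Of 10 endothelial and fibroblast markers 6 passed the filter and 3 were lower at 48 h, CDH5, PDGFRB and LUM. Blood cell markers had 3 of 10 pass, and none was called. The part of these lists in the kallikrein result was not tested.

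The genes most like KLK6 over the 18 libraries, by Pearson correlation of log2 CPM among 10964 genes with a mean of at least 5 CPM, were TSPAN1 (0.995), ME3 (0.994) and GPSM3 (0.993). TSPAN1, a tetraspanin membrane protein, was at 20.5 ± 2.25 CPM in DMSO and 17.9 ± 3.0 CPM in PRT3789 at 6 h, and at 15.8 ± 0.945 and 1.34 ± 0.206 CPM at 48 h. In DMSO at 72 h it was at 12.1 ± 0.775 CPM. TSPAN1 was picked for its likeness to KLK6 over these same libraries, so a shared pattern follows from that choice. Those most like KLK5 were VTCN1 (0.961), GABRP (0.96) and TINAGL1 (0.957). VTCN1, an immune checkpoint ligand of the B7 family, was at 37.6 ± 1.61 CPM in DMSO and 0.433 ± 0.241 CPM in PRT3789 at 48 h. Unlike KLK5 it was called lower at 6 h (log2 fold change -0.71 ± 0.13, edgeR adjusted p = 0.00248), though whether the 2 genes differ there was not tested. These correlations describe a pattern dominated by the group means.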

How the data were processed

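Libraries were poly(A)-enriched, stranded and read as 150 bp pairs, per the labels' protocols. The authors trimmed reads with Trim Galore, aligned them with STAR to GRCh38 (annotation release 110) and quantified genes with RSEM in nf-core/rnaseq 3.17.0, per the series' design text. The deposited values are expected counts, already whole numbers. Groups came from the labels, and no sample was left out.

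Genes were kept by filterByExpr on the 6 groups (minimum count 10, 16291 of 43236 symbols; the others held at most 0.0482% of a library). Scaling was by TMM. Tests were edgeR 4.0.16 (in R 4.3.3) robust two-sided quasi-likelihood F tests, with 1 mean per group over 18 libraries. SEs were derived from the F statistic. CPM used TMM-scaled totals, log2 CPM a prior count of 2, and lengths the union of exons in GENCODE. Scripts were tested on simulated data. Intervals of count ratios were exact. DESeq2 1.42.0 and limma 3.58.1 served in alternatives.

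Members and lists were chosen with earlier results of these data known. Named genes were all members, the 4 smallest p at 48 h in each list, the 3 most alike per member with a mean of at least 1 CPM, 5 tested protein-coding genes on each side of the cluster, SMARCA2 and SMARCA4. KRT14, KRT5, KRT6A, F2RL1 and SPINK5 were named after their values were seen. SMARCA4 was not called at any time (log2 fold change -0.15, 0.06 and -0.22).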

Additional observations from a re-analysis of the deposited data

Results flagged for a closer look

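The effect of PRT3789 on 2 members differed between 6 and 48 h by the interaction test of edgeR. The log2 fold change of KLK6 moved by -4.15 ± 0.21 (SE, adjusted p = 2.77e-10), and in all alternatives run it moved by between -4.52 and -3.91 (highest adjusted p 1.05e-05). That of KLK5 moved by -3.54 ± 0.68 (adjusted p = 0.00117), and between -5.09 and -3.03 in the alternatives (highest adjusted p 0.041). At 48 h all 3 PRT3789 libraries were below all 3 DMSO libraries for both genes. At 6 h this held for KLK6 only. The different spread of the 6 h libraries was not modelled in these tests.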

How the results depend on the processing

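The falls of KLK5 and KLK6 at 48 and 72 h were called under every alternative that was run. For KLK6 the log2 fold change ran from -4.73 to -4.11 at 48 h, and for KLK5 from -5.33 to -3.27. The member calls over time in DMSO were not stable. The count of 1 for 48 h against 6 h, and of 1 for 72 h against 48 h, became 0 with total counts, at an adjusted p under 0.01, with a 2-fold minimum, and without the 6 libraries over 1 CPM of KRT14. Leaving out 1 library at a time gave 0 to 1 in both. The cause was not tested.

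Among the results named, directions reversed only for values that were not called. With limma-voom KLK10 was at -0.51 at 6 h and 0.024 for DMSO 72 h against 48 h, and the change of KLK5 from 48 to 72 h was 0.17. With 1 library left out that change ran from -0.78 to 1.28 (without PRT3789 48 h replicate 1) and was 0.17 without PRT3789 72 h replicate 2. Leaving out 1 library at a time, KLK5 at 6 h ran from -0.40 to 0.034 (without PRT3789 6 h replicate 1), and KLK10 at 6 h from -2.90 (without PRT3789 6 h replicate 3) to 2.26. KLK10 for DMSO 72 h against 48 h ran from -0.78 to 0.89 (without DMSO 48 h replicate 1) and was 0.25 without DMSO 72 h replicate 1, and KLK5 there was 0.14 without the KRT14-rich libraries. KLK10 was not tested with a filter of 1 CPM in 3 libraries, nor at 6 or 48 h with times fitted apart.

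Replicate numbers did not pair the libraries: correlations of deviations over 9 pairs ran from -0.569 to 0.871, with 3 above 0.1, and 5 of 18 libraries correlated best with their own number. With a replicate block, nested in time or shared by the 6 groups, 3 members were called at 48 h and 2 at 72 h, as without it. A nested block cannot be told apart from time in DMSO, so it was not run for DMSO between times.

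Over all genes, 705 were called at 6 h, but 147 with times fitted apart, 380 at adjusted p under 0.01, 167 with a 2-fold minimum, 356 without the KRT14-rich libraries and 1083 (574 higher) without DMSO 6 h replicate 1. At 48 and 72 h 6853 and 7069 were called, 1807 and 2084 with a 2-fold minimum, and 4418 and 4131 without the KRT14-rich libraries. Depth limits KLK7, KLK8 and KLK11, and the size of the KLK5 fall. KLK10 is limited by the spread between libraries of a group as well.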
